A study of Mus musculus with 2 samples.

Results

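The miR-15 family is a set of small RNAs whose mature forms begin with the same few bases, and 6 miRNA genes of the newborn mouse intestine represent it here: Mir15a, Mir16-1, Mir15b, Mir16-2, Mir195a and the row of Mir497b. The members were chosen by name, through the Ensembl identifiers of the count tables, and not by their levels, and all 6 were found among 1973 rows. For Mir497b the reads on the strand opposite to it were used, because they lie on the strand of Mir497, which has no row of its own. Both samples were intestine tissue of B6NCrl pups at postnatal day 0. The animals, pup 1 and pup 2, were littermates from the same pregnant female, with 1 small RNA library each, and there was no second condition, so the values describe levels and the spread between littermates. The segment of intestine was not stated and the sex was not collected.

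MicroRNAs guide Argonaute proteins to messenger RNAs, mostly through the seed, bases 2 to 8 of the mature strand, and lower the output of those messages. The miR-15 family is known as a brake on the cell cycle: its known targets include cyclins of G1 and the apoptosis inhibitor Bcl2. Mir15a and Mir16-1 are the pair lost with the DLEU2 region in human chronic lymphocytic leukaemia, and the miR-195 and miR-497 pair is best known for the withdrawal of heart muscle cells from the cell cycle after birth in mice. The newborn mouse intestine renews its epithelium from dividing cells between the villi and also holds muscle, nerve, vessel and blood cells, and in bulk tissue the cells that carry a miRNA are not resolved.

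The mature sequences show why these genes are treated as a family and why their reads can be hard to tell apart. They are given 5′ to 3′ from RefSeq on GRCm38.p6, with the seed in capitals.
miR-15a-5p: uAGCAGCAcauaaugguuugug
miR-15b-5p: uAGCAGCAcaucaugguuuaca
miR-16-5p: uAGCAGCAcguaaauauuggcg
miR-195a-5p: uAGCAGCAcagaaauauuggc
miR-497a-5p: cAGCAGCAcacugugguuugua
All 5 carry the seed AGCAGCA. After the seed they fall into 2 kinds, miR-16-5p with miR-195a-5p and the others, but the split is narrow. Of the 13 bases compared after the seed, miR-15b-5p and miR-497a-5p, of the same kind, matched at 8. There miR-15a-5p and miR-16-5p, of different kinds, matched at 7. Over the first 21 bases, compared without gaps, miR-16-5p and miR-195a-5p matched at 19 bases, and miR-15a-5p and miR-15b-5p matched at 18. By contrast miR-16-5p and miR-497a-5p matched at 11. Over the same 21 bases miR-497a-5p was closer to miR-15a-5p, with 17 matching bases, than to its cluster neighbour miR-195a-5p, with 12. After the seed these matches were 10 and 5 of 13 bases.

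The same seed was also found in miR-322-5p of the X chromosome, and related seeds in miR-503-5p, miR-103-3p and miR-107-3p, which are grouped with this family as the extended miR-15 group. Their seeds, again in capitals, show a changed last base in miR-503-5p and a shift by a single position in miR-103-3p and miR-107-3p.
miR-322-5p: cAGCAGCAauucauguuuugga
miR-503-5p: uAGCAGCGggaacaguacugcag
miR-103-3p: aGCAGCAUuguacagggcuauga
miR-107-3p: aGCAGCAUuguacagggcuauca
Of 1679 mature names in the RefSeq table, 10 had AGCAGCA at bases 2 to 8, from 11 genes. Apart from the family and Mir322, these were Mir195b, Mir6342, Mir6353 and Mir6419, and each of these 4 had 0 counts in both pups. At this depth 0 counts could hide up to 3, a limit of 0.841 CPM for pup 1 and 0.640 CPM for pup 2. CPM is the number of counts per 1000000 counts on the annotated strand of all miRNA genes.

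The family lies in 3 clusters of 2 hairpins each, given here on GRCm38. Mir15a (chromosome 14, 61632027 to 61632110, minus strand) and Mir16-1 (61631880 to 61631972) are 54 bases apart within Dleu2, a long non-coding RNA gene. Mir15a was intronic in all 8 Dleu2 transcripts over it, while Mir16-1 overlapped an exon in 1 of 9. Mir15b (chromosome 3, 69009772 to 69009835, plus strand) and Mir16-2 (69009902 to 69009996) are 66 bases apart in introns of Smc4, which encodes a condensin subunit needed to pack chromosomes for mitosis. Mir195a (chromosome 11, 70235042 to 70235135, plus strand) lies 241 bases from Mir497 (70234717 to 70234800), and neither lies inside another annotated gene of its strand. Mir497b (70234692 to 70234816) is annotated on the minus strand and spans the whole of Mir497.

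**Figure D1:**
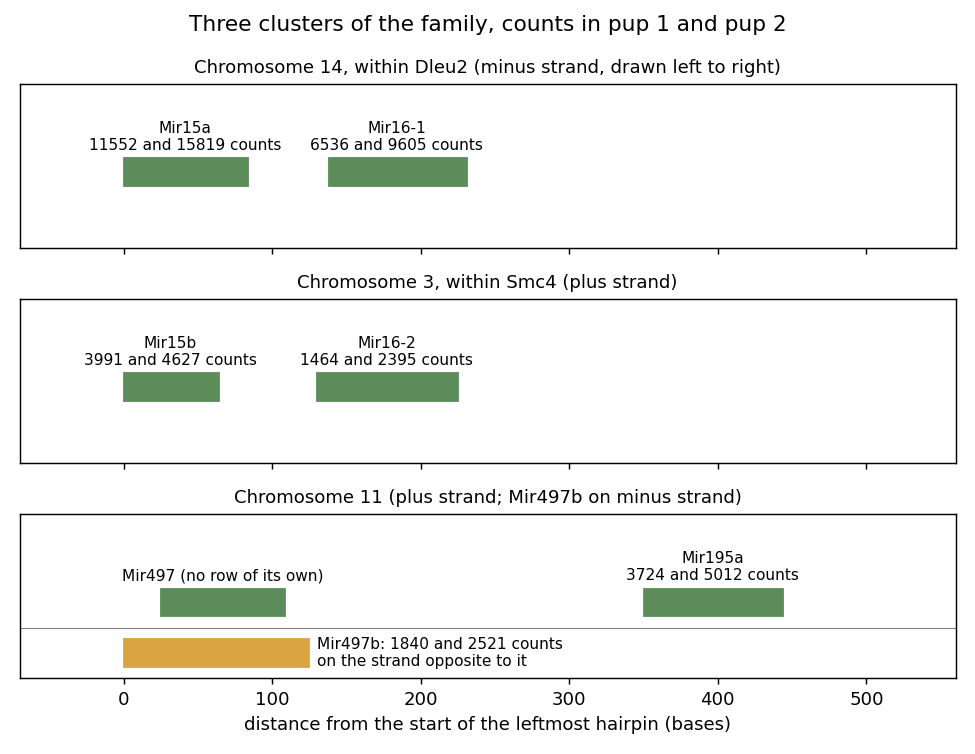
The boxes show the hairpins of each cluster along the direction of transcription, with distance in bases from the start of the leftmost hairpin on the x axis, and the labels give the counts in pup 1 and pup 2. The upper row of each panel holds the host strand, and Mir497b, whose counts lie on the strand of Mir497, is drawn below it.

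Pup 1 was sequenced to 6375694 reads and pup 2 to 8373497, and miRNA genes received 3567658 and 4683939 of them on their own strand. With Mir497b read on the opposite strand, 315 rows had at least 10 counts in each pup, all 6 members among them. As a check of the tissue label, 6 of 6 genes of the intestinal epithelium list were detected and summed to 258204 CPM in pup 1 and 301298 in pup 2. The smooth muscle list summed to 181056 and 150129 CPM and endothelial Mir126a had 54634 and 49791. The striated muscle list summed to 347 and 355 CPM. Of the leukocyte list, Mir142 had no row under that name, and Mir142b was at 0 on its own strand. Reads on the strand opposite to Mir142b were not included. The leukocyte sum of 436 CPM in pup 1 and 483 in pup 2 therefore came from Mir150 and Mir223 only, and leaves out any reads of Mir142. Of the neural list, Mir137 had 1071 and 1034 CPM and the other 4 (Mir124a-1, Mir124a-2, Mir124a-3 and Mir9-2) were at 0 in both pups. Reads that fit several places were assigned to no gene, and sequence shared with other hairpins was not searched for these 4. Their 0 counts therefore need not mean absence. Liver Mir122 had 28.9 CPM in pup 1 and 12.4 in pup 2, and the erythroid list of Mir451a, Mir144 and Mir486 summed to 101 and 148 CPM.

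Together the family took 0.816% of counts in pup 1 (95% interval 0.807 to 0.825, exact Clopper-Pearson) and 0.854% in pup 2 (0.845 to 0.862), a mean of 0.835% ± 0.0266 (SD, n = 2, as for each ± below). Reads carry no molecular identifiers, so these intervals and the limits for 0 counts cover counting error only. The 2 libraries thus differed by more than counting error, and with 1 library per pup, animal and library preparation cannot be told apart. The Mir497b reads, which lie on the opposite strand, were set over the same total. The Dleu2 cluster held most of the family's counts, with 62.1% in pup 1 and 63.6% in pup 2. The Smc4 cluster held 18.7% and 17.6%, and the chromosome 11 cluster 19.1% and 18.8%. In counted reads, these 2 clusters lay close together in each pup and far below the Dleu2 cluster. Reads that fit a hairpin of the Dleu2 cluster and also a hairpin of the Smc4 cluster were assigned to neither. The cluster shares leave such reads out, so how close the Smc4 and chromosome 11 clusters would be with them is not known.

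Mir15a, the member with the most counts, stood at 3238 CPM in pup 1 and 3377 in pup 2 (11552 and 15819 counts), and it ranked 41 of 315 in both pups. Its Dleu2 partner Mir16-1 stood at 1832 and 2051 CPM (6536 and 9605 counts) and at rank 60 in pup 1 and 56 in pup 2. Mir15b of Smc4 had 1119 and 988 CPM, from 3991 and 4627 counts. These 3 genes were apart from each other in both pups, since no range of the pair of values overlapped another.

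Mir16-2, the partner of Mir15b, had 410 CPM in pup 1 and 511 in pup 2 (1464 and 2395 counts), the lowest of the family in both animals. Mir195a had 1044 and 1070 CPM, from 3724 and 5012 counts. The reads facing Mir497b came to 516 and 538 CPM, from 1840 and 2521 counts. Relative to its mean, the SD over the 2 pups was lowest for Mir195a (1.75%), about the same for Mir15a (2.98%) and Mir497b (3.02%), and higher for Mir16-1 (7.96%), Mir15b (8.78%) and Mir16-2 (15.5%).

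**Figure D2:**
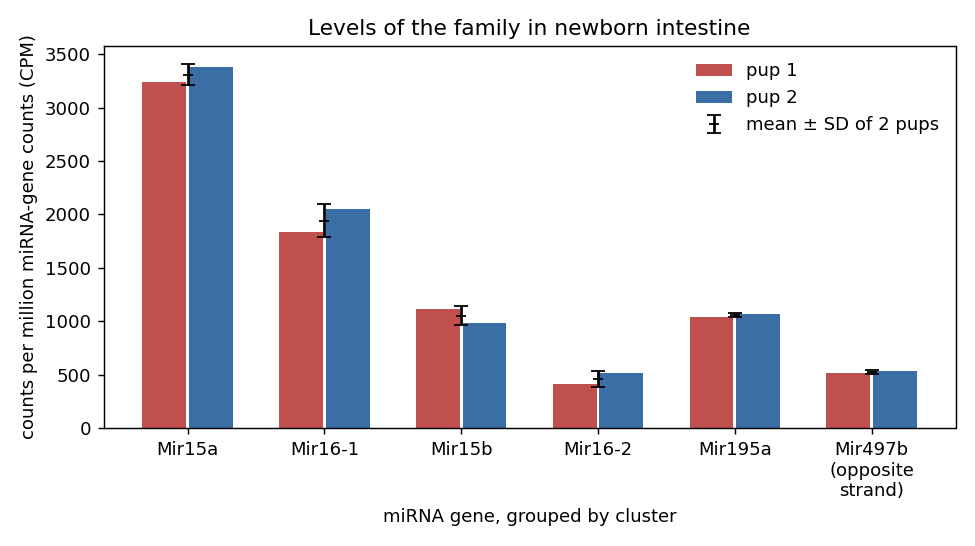
Bars give the CPM of each family gene in pup 1 and pup 2, with the mean and SD of the 2 pups in black and the y axis starting at 0. Mir15a stands highest at 3308 ± 98.5 CPM and Mir16-2 lowest at 461 ± 71.4, and the partners of each cluster are drawn side by side.

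In order of mean level, Mir15a (3308 ± 98.5 CPM) came before Mir16-1 (1941 ± 155), Mir195a (1057 ± 18.5), Mir15b (1053 ± 92.5), Mir497b (527 ± 15.9) and Mir16-2 (461 ± 71.4). Mir195a and Mir15b were not distinguishable, since their means were 3.68 CPM apart and their ranges over the pups overlapped. Mir497b and Mir16-2 were 66.1 CPM apart, less than the SD of Mir16-2, although their ranges did not overlap. The other steps in the order were larger than the spread between pups. Small RNA capture favours some ends over others, so levels of different miRNAs may also hold that bias, which was not measured here.

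Next to the family in level stood genes of other families. Mir15a followed Mir182 (3482 ± 1025 CPM), a miRNA of sensory and secretory cells, and preceded Mir130b (2972 ± 25.4). Mir16-1 lay between Mir425 (2146 ± 374) and Mir423 (1805 ± 96.4). Mir16-2 lay between Mir25 (464 ± 14.3) and Mir501 (437 ± 64.9), and Mir497b between Mir467d (531 ± 73.7) and Mir205 (523 ± 42.7). The gene above Mir195a was Mir196b (1061 ± 1407), whose level differed greatly between the littermates, and the gene below Mir15b was Mir137 (1052 ± 26.3). Except for Mir130b beside Mir15a, the ranges over the pups overlapped for each of these neighbours.

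The miR-16 genes are the members whose level is least certain, because their mature strand is identical. The 2 hairpins are printed 5′ to 3′ from RefSeq on GRCm38.p6, with the longest run they share in capitals.
Mir16-1: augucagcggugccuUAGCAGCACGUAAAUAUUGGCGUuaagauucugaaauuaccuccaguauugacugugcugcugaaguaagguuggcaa
Mir16-2: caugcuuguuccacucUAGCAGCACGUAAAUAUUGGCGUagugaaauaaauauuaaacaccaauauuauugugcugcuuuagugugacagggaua
The shared run of 23 bases holds the whole of miR-16-5p and 1 more base after it. A read that ends within it fits both genes, and multi-mapped reads were assigned to none, per the totals in the deposited tables. The reads counted for Mir16-1 and Mir16-2 would therefore be those that reach past the run or come from the other arm, where miR-16-1-3p (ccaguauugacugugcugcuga) and miR-16-2-3p (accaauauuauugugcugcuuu) differ.

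In all, 8000 reads in pup 1 and 12000 in pup 2 were counted for these 2 genes, beside 1932378 and 2492615 multi-mapped reads that the tables do not divide among miRNAs. The counts of Mir16-1 and Mir16-2, and with them the counts of the family, are lower limits. Their CPM and shares are not bounded in this way, because the total they are divided by leaves out the multi-mapped reads of all miRNAs too. The order of Mir15a before Mir16-1 and the low place of Mir16-2 are those of the counted reads only. The other members were less exposed, with longest runs shared with another annotated miRNA hairpin of 13 bases for Mir15a, 12 for Mir15b, 16 for Mir195a (with Mir195b) and 12 for Mir497.

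Mir497 was measured only through its antisense neighbour. The hairpin of Mir497 is shown 5′ to 3′ from RefSeq on GRCm38.p6 with miR-497a-5p in capitals, beside the annotated mature strand of Mir497b, because the tables name only the second.
Mir497: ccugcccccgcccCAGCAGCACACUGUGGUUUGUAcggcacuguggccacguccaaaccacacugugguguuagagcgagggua
miR-497b: caccacagugugguuuggacgugg
The complement of miR-497b lies whole, 24 of 24 bases, within the Mir497 hairpin. The Mir497b row held the 1840 counts of pup 1 and 2521 of pup 2 on the strand of Mir497, against 1 count on its own strand in each pup. Mir497b's own strand thus held 0.0543% of the row's reads in pup 1 (95% interval 0.00138 to 0.302, exact Clopper-Pearson) and 0.0397% in pup 2 (0.00100 to 0.221). With 1 read in each pup, the level of miR-497b itself could not be measured at this depth.

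The other 5 members had 0 opposite-strand counts in both pups. Mir497b was among 14 rows of the tables with at least 10 opposite-strand counts in each pup, and among the 11 of these where the opposite strand held more than the annotated one. By summed opposite-strand counts it was number 8. Values that ignore the opposite strand would list the miR-497 part of the chromosome 11 cluster at about 0.

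Partners of the same cluster held unequal counts, and the first named was higher in both pups in each pair. Reads that fit both Mir16-1 and Mir16-2 were assigned to neither, so the pairs with a miR-16 gene compare counted reads only. Mir15a over Mir16-1 was 1.77 in pup 1 (exact 95% interval 1.71 to 1.82) and 1.65 in pup 2 (1.61 to 1.69), a mean log2 ratio of 0.77 ± 0.072. Mir195a over Mir497b was 2.02 in pup 1 (1.91 to 2.14) and 1.99 in pup 2 (1.89 to 2.09), a mean log2 ratio of 1.00 ± 0.018. That ratio was the most alike in the littermates, with overlapping intervals.

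The ratio of Mir15b to Mir16-2 was the least alike. It was 2.73 in pup 1 (2.57 to 2.90) and 1.93 in pup 2 (1.84 to 2.03), a mean log2 ratio of 1.20 ± 0.35, and the pups were 0.50 apart on the log2 scale. In counted reads, Mir15b was the higher of the pair in both animals.

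In counted reads, the ratios of paralogs of different clusters were larger than those of partners in both pups. In pup 1, however, the log2 interval of Mir15a over Mir15b overlapped that of Mir15b over Mir16-2 (1.36 to 1.53). Mir15a over Mir15b was 2.89 in pup 1 and 3.42 in pup 2, log2 ratios of 1.53 (exact 95% interval 1.48 to 1.59) and 1.77 (1.73 to 1.82). Mir16-1 over Mir16-2 was 4.46 in pup 1 and 4.01 in pup 2, log2 ratios of 2.16 (2.08 to 2.24) and 2.00 (1.94 to 2.07). In both comparisons the Dleu2 copy was above the Smc4 copy, and for miR-16 this holds for the counted reads only. All 10 ratios, 5 pairs in each of 2 pups, passed a 2-sided exact binomial test at equal counts, with Benjamini-Hochberg adjustment over the 10 and a largest adjusted p of 2.24e-143. That test holds counting error within a library and no spread between animals. It also takes no account of the uncounted miR-16-5p reads in the pairs with a miR-16 gene. Every mean log2 ratio was over 3 times its SD, and with 2 animals an exact permutation test could not reach the threshold.

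**Figure D3:**
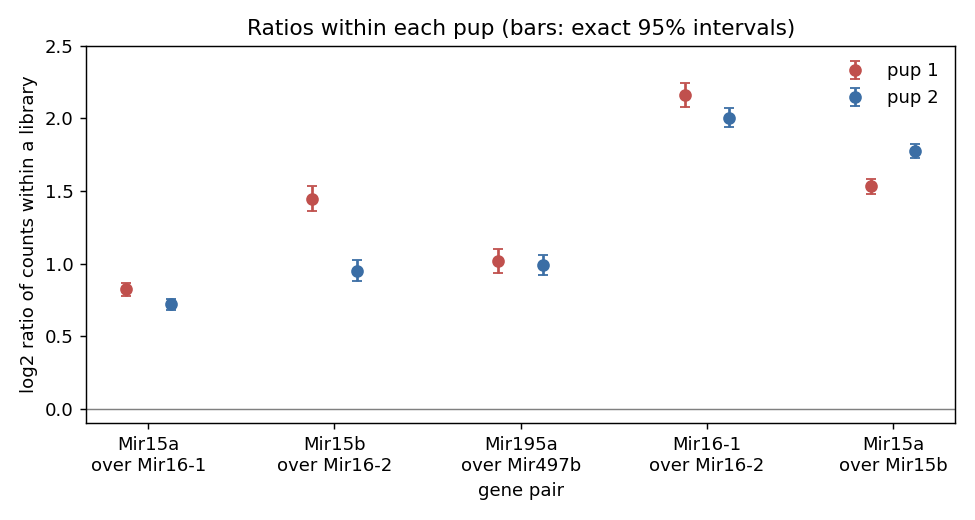
Points give the log2 ratio of counts of each gene pair within pup 1 and within pup 2, and bars give exact 95% intervals for counting error. All ratios lie above 0, and Mir15b over Mir16-2 shows the largest gap between the pups, 1.45 in pup 1 and 0.95 in pup 2.

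Between the littermates the members differed little. Log2 ratios of pup 1 over pup 2 were computed at TMM effective library sizes and compared by a 2-sided exact binomial test, with Benjamini-Hochberg adjustment over 315 rows, which compares 2 libraries and no conditions. Mir15b was 1.10-fold higher in pup 1 (95% interval 1.05 to 1.15; log2 ratio 0.14, exact binomial adjusted p = 4.41e-05). The other 5 were lower in pup 1, with log2 ratios of -0.36 for Mir16-2, -0.21 for Mir16-1, -0.10 for Mir15a, -0.10 for Mir497b and -0.078 for Mir195a. Their exact binomial adjusted p-values were 2.37e-13, 4.49e-18, 2.28e-08, 0.0456 and 0.0315, in that order of genes. The calls of Mir195a and Mir497b were lost with total-count scaling (adjusted p = 0.410 and 0.297), and that of Mir497b also with DESeq2 size factors (adjusted p = 0.0515).

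The 6 of 6 members called compare with 41.3% of all 315 rows, and with 78% of the 127 rows that had at least 1000 counts in each pup, as every member did. Deep counts make small differences pass, so the size is the better guide. The median absolute log2 ratio was 0.12 over the 6 members, 0.14 over the 127 rows and 0.18 over all 315. No member was over 1.5-fold apart, against 0.787% of the 127 rows and 5.71% of all rows. The single member higher in pup 1 compares with 38.6% of the 127 rows and 19.7% of all rows called higher there, and the 5 lower with 39.4% and 21.6% called lower.

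Mir16-2 differed most, 1.28-fold lower in pup 1 (interval 1.20 to 1.37), and 18.1% of all rows were further apart. The Smc4 cluster therefore held both the gene that was higher in pup 1 and the gene furthest down. Markers of other cell types differed between the same libraries. All 6 epithelial markers were called lower in pup 1 at TMM library sizes. By CPM, which divides by total counts, Mir429 was slightly higher in pup 1 (35423.2 against 35178.5) and Mir192 almost equal (28827.3 against 28960.2). Mir143 of smooth muscle was called higher (log2 ratio 0.23) while its list partner Mir145a had -0.0036 without passing. Of the erythroid list Mir451a was called lower (-0.91), Mir144 had 0.12 without passing and Mir486 had 4 and 10 counts. Erythroid RNA is known to be rich in miR-16, and the part of these markers in the Mir16-1 and Mir16-2 differences was not tested. In bulk tissue, fewer cells of a type and less RNA per cell cannot be told apart.

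**Figure D4:**
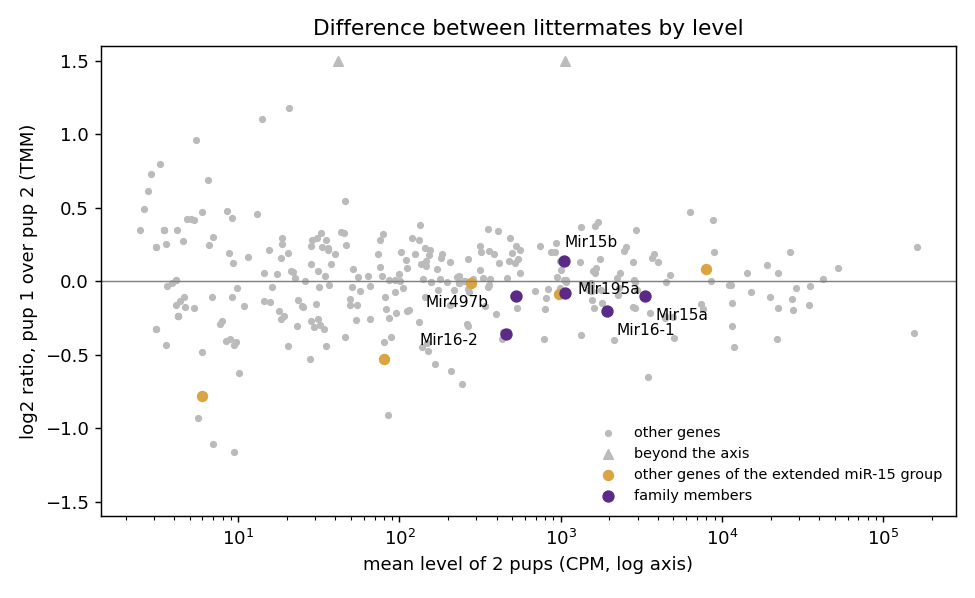
Each point is 1 of 315 rows, with the mean level of the 2 pups in CPM on a log x axis and the log2 ratio of pup 1 over pup 2 on the y axis; triangles at the top edge are rows beyond the axis. The 6 family members lie between -0.36 and 0.14, inside the cloud of the other genes.

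Among the other genes of the extended miR-15 group, Mir322 alone stood about as high as the whole family. The 6 members together had 8159 CPM in pup 1 and 8535 in pup 2, against 8308 and 7635 CPM for Mir322, which has the family's seed and lies on the X chromosome beside Mir503. The ranges overlapped, and of the counts of the family and Mir322 together the family held 49.5% in pup 1 and 52.8% in pup 2. These counts are of whole genes and can include the other arm, which lacks this seed. Reads of miR-16-5p that fit both miR-16 genes are not in them, so the split is of counted reads only. With Mir322 included, genes of the seed AGCAGCA that have counts took 1.63% ± 0.0210 of all counts. The counts behind it are lower limits because of miR-16-5p.

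The remaining genes of the group were lower. Mir107, known for a role in insulin sensitivity in mice, had 962 and 994 CPM in pup 1 and pup 2, close to Mir195a. Its hairpin shares a run of 24 bases with that of Mir103-2, so its counts may be lower limits too. Mir503 had 280 and 275 CPM. Mir103-2 had 66.4 and 93.1 CPM and Mir103-1 4.48 and 7.47 CPM, but their hairpins share a run of 27 bases that holds the whole of miR-103-3p, so the counts of both are lower limits. Of the 5 genes, Mir322 was called higher in pup 1 (log2 ratio 0.079), Mir103-2 (-0.53) and Mir107 (-0.090) were called lower, and Mir503 (-0.014) and Mir103-1 (-0.78, from 16 and 35 counts) did not pass.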

How the data were processed

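Small RNA of a size range below 30, per the labels, was sequenced from 2 pups. The authors deposited raw counts of reads for each miRNA gene, on mm10 with GENCODE M4 per the text beside them. The aligner and counter were not stated in the sources used here. From their sums, the 3 columns hold reads on either strand, the annotated strand and the opposite strand. The 4 totals that name no gene (multi-mapped, unmapped, outside genes and ambiguous, 42.1% of reads in each pup) stayed out of library sizes. Symbols and positions came from GENCODE M21 on GRCm38, which matched 1894 of 1973 identifiers, so positions may differ slightly from M4.

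CPM used annotated-strand counts as denominator. Scaling used edgeR 4.0.16 (TMM) with R 4.3.3, DESeq2 1.42.0 gave alternative size factors, and exact tests used scipy 1.17.1 with an adjusted p threshold of 0.05; the tests were checked on simulated data. The named genes are the members, genes facing them, their neighbours in level, the other genes of the extended miR-15 group and the tissue markers. Members and lists were chosen with earlier results of these data known. Shared runs were searched among annotated miRNA hairpins only, on both strands. Both pups form 1 group, so p-values compare libraries.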

Additional observations from a re-analysis of the deposited data

How the results depend on the processing

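With all reads as the denominator the mean levels were 1851 CPM for Mir15a, 1086 for Mir16-1, 589 for Mir15b, 258 for Mir16-2, 591 for Mir195a and 295 for Mir497b, and the family's share was 0.467%, since a larger total was divided by. With strand ignored, Mir15a stood at 3196 CPM, Mir195a at 1021 and Mir497b at 509, and the share was 0.807%. The share was 0.782% without Mir497b. No direction of the 6 members or the 5 pairs was reversed by any alternative, and other genes were not checked in this way. With total-count scaling the log2 ratios of pup 1 over pup 2 were -0.036 for Mir195a and -0.062 for Mir497b, and with DESeq2 size factors that of Mir497b was -0.10, and these 3 did not pass; the other calls of members held with each scaling. Total-count and upper-quartile scaling shifted all log2 ratios by 0.042 and -0.049. A fold threshold of 2 left 6 of the 18 rows that were over 1.5-fold apart. The number of rows called stayed between 122 and 133 under the other scalings and count minimums, and was 99 among rows of at least 1000 counts, an alternative chosen after seeing the data. Each pup alone gave ratios of the same direction in all 5 pairs. No paired analysis was possible because there is 1 group. Depth limits the statements on miR-497b, on Mir103-1 and on the genes with 0 counts. The loss of multi-mapped reads limits the counts of the miR-16 genes and of Mir103-1 and Mir103-2. That loss may also limit the counts of Mir107 and of the neural genes with 0 counts, and more depth would not recover such reads.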
